A study of Mus musculus with 4 samples.

Results

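Nurr1 and Foxa2 were compared directly, each introduced on its own into mouse cortical neural precursor cells, to see which genes each factor favours. All probes with a gene symbol and a detection p-value under 0.01 on at least 1 of the 2 single-factor arrays were used. They represented 8030 of 8980 named genes, by 11121 of the 25697 probes of the array. Of these probes 10203 were detected on both arrays, 409 on the Nurr1 array alone and 509 on the Foxa2 array alone. The series has 4 bead arrays, 1 for each of Nurr1, Foxa2, both factors together (Nurr1+Foxa2) and the empty virus (Control). Detection on the Control and Nurr1+Foxa2 arrays was not used to choose genes, though both entered the mean level by which 1 probe stood for a gene, and their levels are given beside the contrast. In every group the cells came from the cortex of ICR mice at embryonic day 12, were expanded without serum in bFGF and EGF, both mitogens, and were left in viral supernatant for 2 hours. The factors were carried by the retroviral vector pCL, and RNA followed 2 days after the mitogens were withdrawn. The cells are thus forebrain precursors, not ventral midbrain cells, that carry an added gene on a virus. The share of cells that took up virus is not given in the sources used here.

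Nurr1, the product of Nr4a2, is an orphan nuclear receptor that midbrain dopamine neurons need to form and to keep their transmitter phenotype. It binds a short element, the NBRE, as a monomer, and can also act with retinoid X receptors. Foxa2 is a forkhead factor that opens closed chromatin. It specifies the floor plate, the source of Sonic hedgehog at the ventral midline, and acts in endoderm and in the progenitors of midbrain dopamine neurons. Both factors are used together to turn precursors into dopamine neurons in culture.

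The median bead signal, a fluorescence intensity without normalization, was 138 with Nurr1, 145 with Foxa2, 149 with both factors and 134 with the empty virus. Detected probes made up 44.0%, 44.6%, 44.4% and 42.7% in the same order. The lowest detected signal was 166 with Nurr1 and 173 with Foxa2, so signals below these are background. The 60 probes just inside the threshold, at a lowest detection p-value of 0.00877, had a median signal of 166 with Nurr1 and 173 with Foxa2. The 54 probes just outside it, at 0.01003, had medians of 157 and 172. There was 1 array a group, so no difference has a replicate check, and their number limits the precision.

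The Nr4a2 probe had a signal of 1669 with Nurr1 and 216 with Foxa2, 1620.4 with both factors and 167 with the empty virus. It was 13.6-fold higher with Nurr1 than with Foxa2, and the arrays labelled with Nurr1 were the high ones. Whether it reads the transcript of the virus or that of the cells' own gene is not known here. Foxa2 has no named probe, so its own level was not analysed. Of 10 listed markers of cortical identity, 5 had a named probe: Lhx2, Otx1, Nr2f1, Dmrta2 and Tbr1. All 5 were detected on both arrays. Tbr1 was near the detection limit (231 with Nurr1, 196 with Foxa2) and undetected on the Control array (161). Detection of these genes does not by itself establish the labelled cortical origin. The log2 differences of the 5 genes had a median of 0.23, with 3 of the 5 above 0, and none was 2-fold different.

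Most genes were near equal between the factors: 4598 of 8030 (57.3%) lay within 1.2-fold, and the median difference was 0.02. All differences are log2 values of background-corrected, quantile-normalized signal, Nurr1 minus Foxa2, and folds come from them, not from the raw signals quoted beside them. Over all 8030 genes, 4262 differences were above 0 and 3718 below, beside which the sign counts of the lists stand. A gene counted as different at 2-fold or more with the brighter array detecting it, and 606 genes (7.55%) did. Of these, 252 were higher with Nurr1 than with Foxa2 (3.14% of all genes) and 354 were lower (4.41%). At least 4-fold differences numbered 70 higher and 82 lower, and at least 8-fold ones 19 higher and 17 lower. In 51 of the higher and 68 of the lower genes the dimmer array did not detect the probe. Its value was then raised to the lowest detected level of that array, and the fold is a bound, written "at least". Without background correction the counts were 162 higher and 244 lower.

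The only error these arrays give is the spread between probes of 1 gene. Over 2005 genes with at least 2 probes detected on both arrays, the difference varied between probes with a standard deviation of 0.19 (log2), against a standard deviation of 0.56 over all measured genes. All probes had 1 sign in each of the 89 genes whose mean difference reached 2-fold, and every probe reached 2-fold in 66 of them. These genes were chosen by the mean of the same probes, so their common sign was largely set by the choice. Among 193 other probes of called genes, 120 differed at least 2-fold the same way. How far separate cultures, infections or RNA extractions would differ is not in this spread. Differences were more frequent among dim genes: split into 4 equal classes by mean level over the 4 arrays, 11.6% of the genes with the lowest level were called, and 3.64% of those with the highest.

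**Figure D1:**
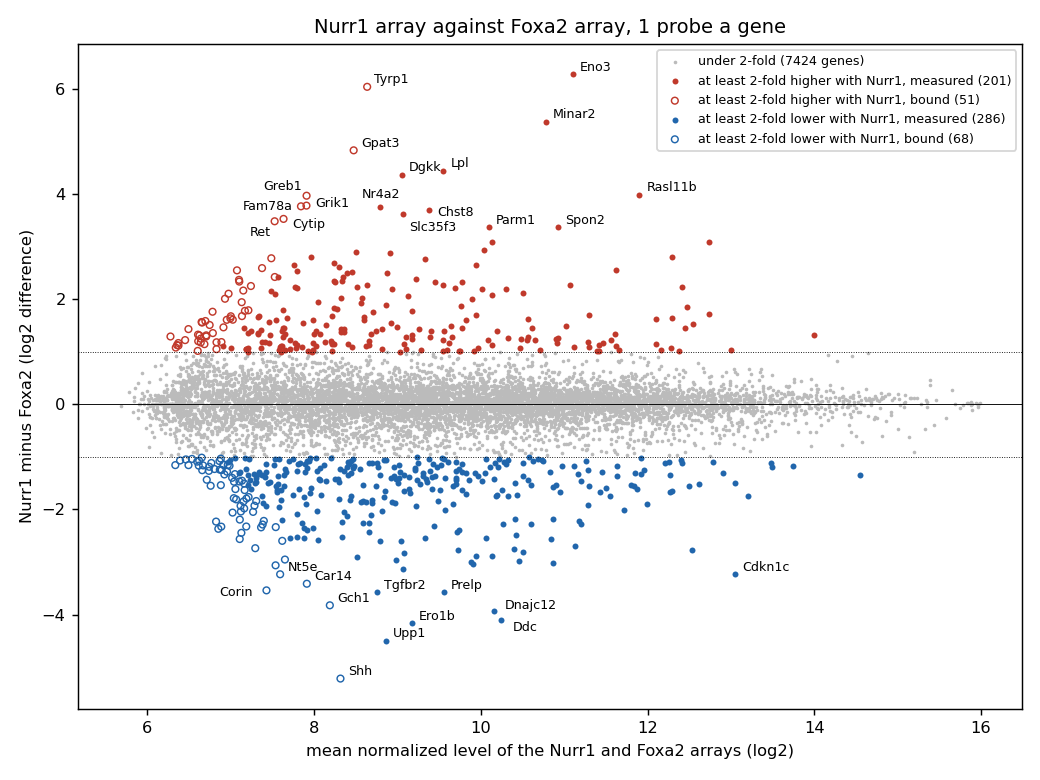
Each point is 1 gene, with its Nurr1 minus Foxa2 difference (vertical axis, log2) against its mean normalized level on the 2 arrays (horizontal axis, log2). Of 8030 genes, 252 lie at least 2-fold above the line of equal levels and 354 at least 2-fold below it, and the genes farthest out are named.

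Among genes detected on both arrays, the largest difference was that of Eno3, the beta enolase of muscle. It had a signal of 18701 with Nurr1 and 357 with Foxa2, 19418 with both factors and 297 on the Control array, and was 78.0-fold higher with Nurr1. Both arrays with Nurr1 were thus high and both without it were low. Minar2 had signals of 10983 and 381 with Nurr1 and Foxa2, a 41.7-fold difference, with 4464 on the Nurr1+Foxa2 array and 244 on the Control array. Lpl, lipoprotein lipase, which frees fatty acids from circulating triglyceride, had 3489 with Nurr1 and 259.8 with Foxa2, 21.7-fold. The diacylglycerol kinase gene Dgkk (2431 with Nurr1, 212 with Foxa2) was 20.7-fold higher. Rasl11b, a Ras-like small GTPase gene, reached 15059 with Nurr1 against 1111 with Foxa2, 15.8-fold.

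Chst8, a sulfotransferase that modifies N-acetylgalactosamine, and the carrier gene Slc35f3 were 13.0-fold and 12.3-fold higher with Nurr1 than with Foxa2. The matrix protein gene Spon2 had signals of 6115 with Nurr1 and 739 with Foxa2 (10.4-fold), and the mucin-like gene Parm1 3515 and 455 (10.3-fold). Ntsr2, a neurotensin receptor found on astrocytes, had 3302 with Nurr1 and 503 with Foxa2, 8.54-fold. Igfbp3, which binds insulin-like growth factors in the extracellular space, had 19278 with Nurr1, against 2553 with Foxa2 (8.51-fold). On the Nurr1+Foxa2 array Igfbp3 had 3678 and Chst8 559.7, closer to the Foxa2 than to the Nurr1 values, whereas Lpl (8678) and Slc35f3 (3293) were brighter there than on either single-factor array.

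Genes seen with Nurr1 and not detected with Foxa2 were led by Tyrp1, an enzyme of melanin synthesis. It had a signal of 5267 with Nurr1 against a background of 94.7 with Foxa2, 4219.9 with both and 97.8 on the Control array, at least 66.0-fold. Its other probes gave at least 50.3-fold and at least 39.5-fold. Gpat3, which starts triglyceride synthesis from glycerol 3-phosphate, had 2359.9 with Nurr1 and 142 with Foxa2, at least 28.6-fold. The oestrogen-responsive gene Greb1 was at least 15.7-fold higher, Grik1, a kainate receptor subunit, at least 13.8-fold, and Fam78a at least 13.6-fold. Ret, the receptor through which glial-cell-derived neurotrophic factor signals, had 969 with Nurr1 and 116 with Foxa2, at least 11.2-fold. Cytip was at least 11.6-fold higher and Hs6st2, a heparan sulfate sulfotransferase gene, at least 6.88-fold. All 8 of these genes were undetected on the Control array too.

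In the other direction the largest measured difference was that of Upp1, uridine phosphorylase, with a signal of 177 with Nurr1 and 2413 with Foxa2, 22.5-fold lower with Nurr1. Ero1b, an oxidase that drives disulfide bond formation in the endoplasmic reticulum, had 215 with Nurr1 and 2670.5 with Foxa2 (17.9-fold lower), 1925 with both factors and 263 on the Control array. The Foxa2 array and the Nurr1+Foxa2 array were the high ones. Prelp, a leucine-rich matrix proteoglycan gene, had 297 with Nurr1, 2827 with Foxa2 and 359 with both (11.9-fold lower with Nurr1 than with Foxa2). Cdkn1c, which encodes the cell cycle inhibitor p57, had 2786 with Nurr1, 26362 with Foxa2, 8315 with both and 12058 on the Control array. It was 9.42-fold lower with Nurr1 than with Foxa2, and the Control level lay between those of the single factors. Crtac1, a matrix protein gene of cartilage and brain, was 8.82-fold lower, the membrane protein gene Tmem47 8.25-fold, the ubiquitin ligase gene Neurl1a 8.08-fold, the steroid dehydrogenase gene Hsd17b11 8.03-fold and Fbxo2, which targets glycoproteins for degradation, 7.93-fold.

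Among genes seen with Foxa2 and not detected with Nurr1, besides those of the dopamine, floor plate and signalling groups, were Car14, a carbonic anhydrase gene (146 with Nurr1, 1057 with Foxa2, at least 10.7-fold lower), and Nt5e, the enzyme that makes adenosine from AMP at the cell surface (126 and 944, at least 9.40-fold). Lox, which crosslinks collagen and elastin, had 122 with Nurr1 and 700.5 with Foxa2, at least 6.67-fold lower. All 40 genes with the largest measured or bounded differences, Nr4a2 included, stayed at least 2-fold different the same way without background correction. For 21 of them the fold then shrank by more than 1.5 times, for instance to at least 32.7-fold for Tyrp1.

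**Figure D2:**
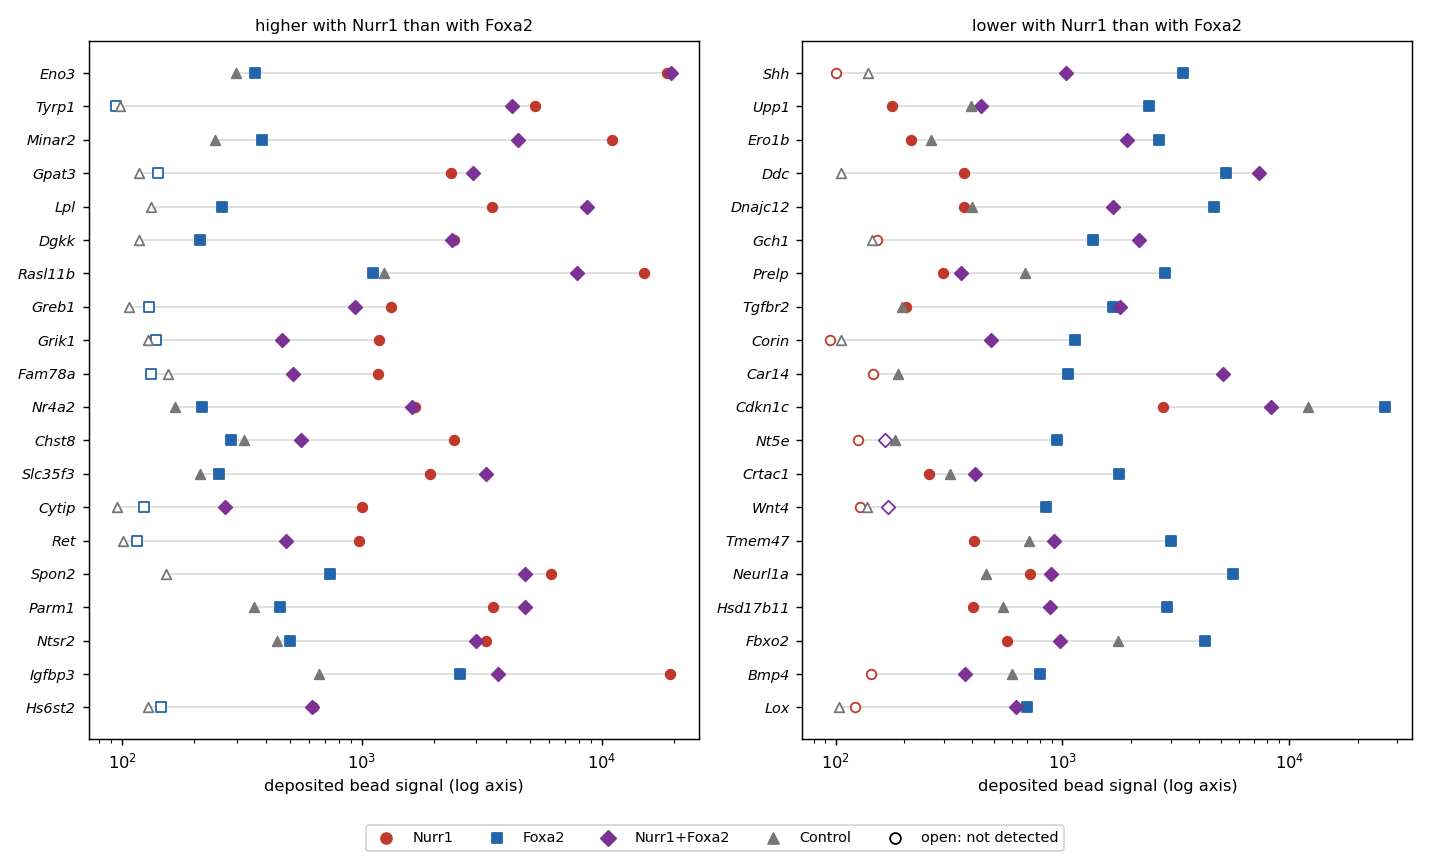
Deposited bead signals (log axis) on the Nurr1, Foxa2, Nurr1+Foxa2 and Control arrays for the genes with the largest differences, higher with Nurr1 on the left and lower with Nurr1 on the right. Open symbols mark arrays that did not detect the probe, and Eno3 and Tyrp1 show the Nurr1 and Nurr1+Foxa2 symbols far above the other two.

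The windows around the start sites of the differing genes were searched for the letters of each factor's element, and those of the genes with the largest differences that hold one are shown. The windows are the 250 bases before and 50 after each start in RefSeq (mouse GRCm38.p6), and capitals mark the match. Tyrp1 (chr4:80833963-80834262, plus strand) and a window of Ddc (chr11:11898095-11898394, minus strand) hold the NBRE letters AAAGGTCA on the opposite strand, TGACCTTT, at -98 and -73 from the start site. Emp1, an epithelial membrane protein gene (a window at chr6:135362681-135362980, plus strand), and Selenop, which encodes a selenium carrier (a window at chr15:3270727-3271026, plus strand), hold the forkhead letters TGTTTAC on the opposite strand, GTAAACA, at -223 and -24. Dnajc6, which encodes auxilin, a factor of clathrin uncoating (a window at chr4:101507726-101508025, plus strand), holds TGTTTAC at -34.
Tyrp1: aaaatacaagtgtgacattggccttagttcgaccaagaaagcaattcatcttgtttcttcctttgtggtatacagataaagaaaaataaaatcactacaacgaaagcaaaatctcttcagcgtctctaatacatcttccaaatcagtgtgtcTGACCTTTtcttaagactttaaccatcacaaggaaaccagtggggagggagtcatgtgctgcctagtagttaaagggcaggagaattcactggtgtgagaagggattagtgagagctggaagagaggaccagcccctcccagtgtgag
Ddc: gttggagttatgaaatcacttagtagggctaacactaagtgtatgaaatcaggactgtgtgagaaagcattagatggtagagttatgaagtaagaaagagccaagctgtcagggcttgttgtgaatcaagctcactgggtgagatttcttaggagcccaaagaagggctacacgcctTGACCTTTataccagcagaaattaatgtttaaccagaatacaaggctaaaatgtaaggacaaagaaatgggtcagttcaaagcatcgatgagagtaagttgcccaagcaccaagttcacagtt
Emp1: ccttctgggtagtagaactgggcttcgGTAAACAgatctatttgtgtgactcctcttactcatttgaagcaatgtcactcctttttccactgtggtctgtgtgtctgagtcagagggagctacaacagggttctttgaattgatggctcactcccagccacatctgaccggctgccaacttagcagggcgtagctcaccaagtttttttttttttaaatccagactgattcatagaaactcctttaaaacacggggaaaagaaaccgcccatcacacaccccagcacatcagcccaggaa
Selenop: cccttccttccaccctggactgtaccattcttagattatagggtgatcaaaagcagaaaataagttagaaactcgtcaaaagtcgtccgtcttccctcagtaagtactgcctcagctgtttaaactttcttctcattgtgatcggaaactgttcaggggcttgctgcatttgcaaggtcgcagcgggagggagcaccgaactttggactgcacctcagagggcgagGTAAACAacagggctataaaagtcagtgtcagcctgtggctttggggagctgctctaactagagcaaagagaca
Dnajc6: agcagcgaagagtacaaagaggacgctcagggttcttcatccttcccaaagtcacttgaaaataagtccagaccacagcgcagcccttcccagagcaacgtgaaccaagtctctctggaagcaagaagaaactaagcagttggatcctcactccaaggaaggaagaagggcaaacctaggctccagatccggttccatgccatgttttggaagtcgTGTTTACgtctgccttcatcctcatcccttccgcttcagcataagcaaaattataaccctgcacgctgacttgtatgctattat
The window of Tyrp1 belongs to the gene with the largest bound in favour of Nurr1. That of Ddc, with the same letters, belongs to a gene 17.1-fold lower with Nurr1 than with Foxa2. Emp1 had a signal of 643 with Nurr1 and 3478 with Foxa2 (5.59-fold lower), Selenop 162 and 553 (at least 5.05-fold lower) and Dnajc6 2354 and 674 (4.25-fold higher). These 3 genes were picked for their windows after their values were seen.

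Counted over all genes with a window, on both strands, the NBRE letters stood in 1 of 194 genes higher with Nurr1 (0.515%), 4 of 263 genes lower (1.52%), 62 of 6571 genes tested (0.944%) and 460 of 27025 genes of the whole table (1.70%). The forkhead letters stood in 5 of 194 higher genes (2.58%), 8 of 263 lower genes (3.04%), 207 of 6571 tested genes (3.15%) and 1095 of 27025 genes in all (4.05%). Of 32851 windows 28 held both elements, and in 0 of them did the matches share bases. Between 1 and 8 genes stand behind each share of the differing genes, so no order is read from the shares. A match is a description of letters in this window, and a window without one says nothing of binding elsewhere.

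Genes of dopamine neurons lay on both sides. The counts of this list and of those that follow stand beside 3.14% of all genes higher and 4.41% lower. A count of 1 or 2 genes in a list is too small to tell from these shares. Of 30 listed genes of dopamine synthesis, transport and maintenance, 19 had a named probe and 16 were measured. Of these 16, 4 were at least 2-fold higher with Nurr1 than with Foxa2 and 5 were lower, with a list median of -0.09. One of the 4 is Nr4a2, which the virus itself carries, and the others are Ret, Gfra1 and Nrip3. Among the synthesis and cofactor enzymes, Ddc and Gch1 were at least 2-fold lower with Nurr1, and the other measured ones fell short of 2-fold. Ddc, which decarboxylates L-DOPA to dopamine, had a signal of 368 with Nurr1, 5243 with Foxa2, 7392 with both factors and a background of 106 on the Control array, 17.1-fold lower with Nurr1 than with Foxa2. Gch1, the first enzyme in the synthesis of tetrahydrobiopterin, the cofactor of tyrosine hydroxylase, had 152 with Nurr1, 1366 with Foxa2, 2178 with both and 145 on the Control array, at least 14.2-fold lower. Its dimmer second probe was at least 1.81-fold lower. Dnajc12, a co-chaperone of the aromatic amino acid hydroxylases, had 367 with Nurr1 and 4681 with Foxa2 (15.2-fold lower), 1674 with both and 399.5 on the Control array.

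The enzymes that follow Gch1 differed less: Pts (-0.36) and Qdpr (-0.65), which recycles the cofactor, were below 0 and Spr (0.59) above it on the log2 scale, all short of 2-fold. Th, tyrosine hydroxylase, was dim on both arrays, with 188 with Nurr1 and 237 with Foxa2 (-0.34), against 4469.7 on the Nurr1+Foxa2 array and a background of 101 on the Control array. Slc6a3, the dopamine transporter, had 171 with Nurr1 and an undetected 113 with Foxa2, a bound of 0.15 on the log2 scale, against 2023 with both factors. The synthesis enzyme and the transporter were therefore close to background with either factor alone, and bright on the array that had both.

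The receptor side was on the Nurr1 array. Ret, given above, and Gfra1, its co-receptor (354 with Nurr1, 165 with Foxa2, at least 3.44-fold), were both higher, as was Nrip3, the nuclear receptor interacting protein gene (541 and 195, 4.68-fold). Bdnf, the neurotrophin gene, had 198 with Nurr1 and 414 with Foxa2 (2.56-fold lower) and Ptpru, a receptor phosphatase gene, was at least 2.07-fold lower. Both fell short of 2-fold without background correction. En2 (0.37) and Satb1 (0.44), transcription factor genes of these neurons, differed little. The list median changed sign with the filter and was 0.37 when probes were counted as detected under 0.05.

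Of 24 listed genes of the floor plate and ventral midbrain, only 10 had a named probe and 9 were measured. These 9 were all on the Foxa2 side or near equal. None was at least 2-fold higher with Nurr1 than with Foxa2 and 6 were lower (66.7%, against 4.41% of all genes). The list median was -1.28, against 0.02 over all genes. Shh, the secreted signal of the floor plate, had a background signal of 101 with Nurr1 against 3414 with Foxa2, 1040.4 with both and a background of 139 on the Control array, at least 37.2-fold lower with Nurr1. Without background correction its bound was 19.1-fold. Corin, a serine protease gene used to sort floor plate cells, had 94.7 with Nurr1, 1141 with Foxa2, 485 with both and 105 on the Control array, at least 11.6-fold. Sulf1, which edits heparan sulfate, was at least 4.57-fold lower, and Wnt5a 2.47-fold. The dopamine progenitor gene Neurog2 had 626 with Nurr1 and 1529.8 with Foxa2 (2.43-fold lower) but 2674 on the Control array, so that it was highest with neither factor. Nkx2-2, of the ventral progenitor domain beside the floor plate, had 309.7 with Nurr1, 629 with Foxa2 and 753 on the Control array (2.19-fold lower with Nurr1 than with Foxa2), short of 2-fold without background correction. The axon repellent gene Slit2 (-0.15), Spon1 (at least 1.34-fold lower) and Lmx1b (0.16), a factor of dopamine progenitors close to background on both arrays, were not 2-fold different.

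Downstream of Shh, 3 of 8 measured Hedgehog genes were lower with Nurr1, Shh among them, and none was higher (median -0.37). The others were Ptch1, the receptor and a direct target of the pathway (207 with Nurr1, 558 with Foxa2, 3.40-fold), and Hhip, a target that binds the ligand (140.2 and 402, at least 3.45-fold). On the Nurr1+Foxa2 array, where Shh had 1040.4, Ptch1 had 277 and Hhip an undetected 166, against 265 and an undetected 129.5 on the Control array. Of the 4 arrays, both targets were brightest on the Foxa2 array. In these bulk samples, fewer cells of a kind and less RNA per cell cannot be told apart, here and in all lists that follow. Of 40 listed endoderm and epithelium genes, a further territory of Foxa2, only 8 had a named probe and 7 were measured. None of the 7 was at least 2-fold lower with Nurr1, but 5 were below 0 and 2 above. The lowest log2 difference, -0.995, was just short of 2-fold. Ttr, transthyretin, was 3.03-fold higher with Nurr1 (397, against 202 with Foxa2). The endoderm median was -0.14, and -0.55 with detection under 0.05.

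**Figure D3:**
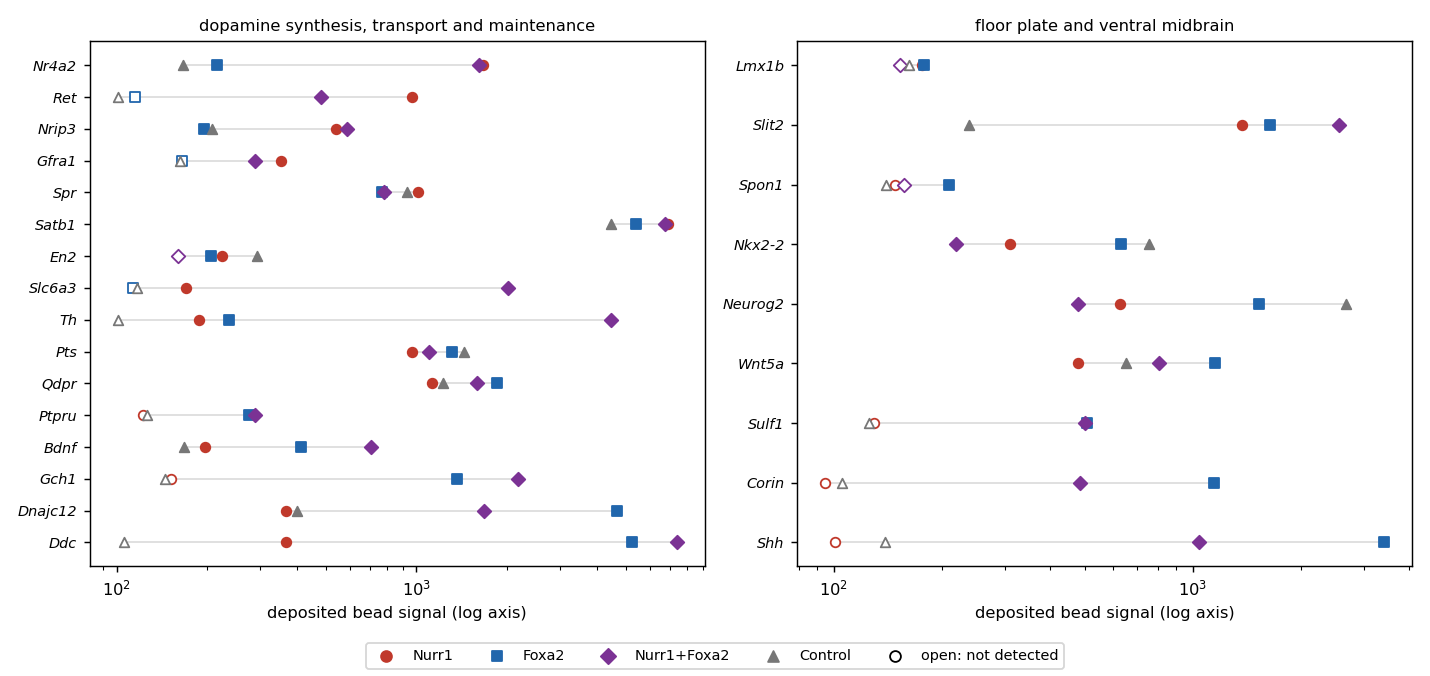
Deposited bead signals (log axis) of every measured gene of the dopamine list (left) and the floor plate list (right) on the 4 arrays, ordered by the Nurr1 minus Foxa2 difference. Open symbols mark arrays that did not detect the probe. Ddc, Dnajc12, Gch1, Shh and Corin lie far to the right on the Foxa2 array, and Ret and Nr4a2 on the Nurr1 array.

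Secreted signals were the next group on the Foxa2 side. Of 21 measured genes of the TGF-beta and bone morphogenetic protein pathways, 6 were lower with Nurr1 and none higher. The lower share was 28.6%, against 4.41% of all genes. Of the 21, 19 were below 0, and the median was -0.82. This median was -0.59 with detection under 0.05 and -0.56 with no filter. Among ligands, Bmp4 had 143 with Nurr1, 798 with Foxa2, 373 with both and 598 on the Control array, at least 7.74-fold lower with Nurr1 than with Foxa2, the Control array lying near the Foxa2 one. Tgfb2 (303 with Nurr1, 1058 with Foxa2, 4.06-fold) and Tgfb3 (at least 4.13-fold) were lower too. Tgfbr2, the ligand-binding receptor, had 204 with Nurr1, 1667 with Foxa2, 1791 with both and 196 on the Control array, 11.9-fold lower, though its dimmer second probe was only at least 1.16-fold lower. Fst, follistatin, which blocks activins, was at least 5.44-fold lower, so these ligands, a receptor and this antagonist lay the same way. The antagonist genes Nog (0.68) and Chrd (-0.02), not among the farthest of the list, did not share this direction.

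Of 22 measured Wnt genes, 8 were lower with Nurr1 (36.4%, against 4.41% of all genes). Only 1 was higher (4.55%, against 3.14%), and the median was -0.54. The ligand gene Wnt4 had 129 with Nurr1 and 850.1 with Foxa2, at least 8.36-fold lower. The receptor genes Fzd10 (3.81-fold) and Fzd7 (2.95-fold) and the extracellular antagonist genes Dkk3 (486 with Nurr1, 3313 with Foxa2, 7.38-fold) and Sfrp1 (2777 and 9077, 3.19-fold) were lower as well. Activators and inhibitors of the pathway thus lay on the same side. For Sfrp1 the Control array, at 9682, was near the Foxa2 array. The single gene higher with Nurr1 was Rspo3, which amplifies Wnt signals (433 with Nurr1, 211 with Foxa2, 3.11-fold).

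Notch genes were on the Foxa2 side, with a median of -0.46. Of 17, 5 were lower with Nurr1 (29.4%, against 4.41% of all genes) and none was higher. Mfng, a glycosyltransferase that modifies Notch receptors, had 281 with Nurr1 and 1611 with Foxa2 (7.14-fold lower). The receptor gene Notch3 was 2.54-fold lower, and the target genes Hes1 (390.0 and 982) and Hey1 (3117 and 8166) were 2.64-fold and 2.52-fold lower. The target genes Hes5 (-0.34) and Nrarp (0.14), not among the farthest of the list, were short of 2-fold. Hes6, which encodes an antagonist of Hes1, had 3361 with Nurr1 and 7574 with Foxa2 (2.14-fold lower). Mfng (1274) and Hey1 (6285) were bright on the Control array as well, and Hes1 (343) was not. The 5 genes therefore do not share 1 pattern over the 4 arrays.

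Genes of the ERK and insulin-like growth factor lists leaned the other way. Among 16 measured feedback and immediate early genes of the ERK pathway, 4 were higher with Nurr1 (25%, against 3.14% of all genes). None was lower, 15 were above 0, and the median was 0.41. Ier3, an immediate early gene, had 746 with Nurr1 and 235 with Foxa2 (5.004-fold higher). Dusp4, a phosphatase that switches the kinases off, had 1201 and 616 (2.33-fold), and the transcription factor genes Fos (2.26-fold) and Etv4 (2.02-fold) were just past the threshold and short of it without background correction. Of 11 genes of the insulin-like growth factor system, 3 were higher and 1 lower (median 0.27). The ligand gene Igf2 (753 with Nurr1, 319 with Foxa2, 3.18-fold) was higher together with the binding protein genes Igfbp3 and Igfbp7 (2.10-fold, a log2 difference of 1.07, and 0.64 without background correction). The binding protein gene Igfbp5 was the reverse of Igfbp3, with 2292 with Nurr1, 15982 with Foxa2, 5469 with both and 4293 on the Control array (6.86-fold lower with Nurr1).

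Cell cycle genes stayed below the 2-fold threshold. None of 28 DNA replication genes and none of 19 mitosis genes was 2-fold different. Of the replication genes, 22 were below 0, with a median of -0.22, and Mcm2, a helicase subunit (-0.77), and the polymerase gene Pole (-0.67) were the farthest. All 19 mitosis genes were above 0, between 0.03 and 0.81, with a median of 0.43, and the centromeric histone gene Cenpa (5358 with Nurr1, 3356 with Foxa2) and Cdc20 (2100.4 and 1344), an activator of the anaphase-promoting complex, were the farthest. The 4 Cdc20 probes ranged between 0.49 and 0.80. Of 20 genes of cyclin-dependent kinase inhibitors and the p53 response, 2 were higher and 1, Cdkn1c, was lower (median 0.28). Plk2, a p53 target kinase gene (1706 with Nurr1, 580.0 with Foxa2, 3.66-fold), and Pmaip1, which encodes the cell death factor Noxa (at least 4.77-fold), were the higher ones.

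Progenitor and astrocyte genes were more often on the Foxa2 side. Of 22 radial glia and progenitor genes, 4 were lower with Nurr1 (18.2%) and 1 higher (4.55%), with a median of -0.43. Over all genes 4.41% were lower and 3.14% higher. Fgfr3 (830.4 with Nurr1, 2731 with Foxa2, 3.29-fold), Hes1, Fgfr1 (2.55-fold) and Nr2e1, an orphan receptor gene of neural stem cells (2.06-fold), were lower, the last pair short of 2-fold without background correction. The matrix gene Tnc was 2.26-fold higher with its brightest probe and short of 2-fold, at a log2 difference of 0.83, as the mean of its probes. Of 18 astrocyte genes, 6 were lower and 1 was higher (median -0.51). Aqp4, the water channel of astrocyte endfeet, had 465 with Nurr1, 1245 with Foxa2 and 1196 on the Control array (2.79-fold lower with Nurr1 than with Foxa2). Slc6a11, a GABA transporter gene, was 3.84-fold lower (379.6 and 1331), Timp3 3.33-fold, Sparcl1, a secreted matrix protein gene, at least 3.81-fold and Aldh1l1 2.09-fold. Timp3 and Aldh1l1 were short of 2-fold as means over their probes. Ntsr2 was the only one at least 2-fold higher (8.54-fold). Of the 18 astrocyte genes, 12 were below 0 and 6 above. Gja1 (0.91) and Cd44 (0.92) were among those above, short of 2-fold.

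In the oligodendrocyte lineage, 1 of 13 genes was higher and 2 were lower, with a median of 0.37. Cldn11, a tight junction protein of myelin, had 7535 with Nurr1, 1471 with Foxa2, 5427 with both and 1903 on the Control array (5.87-fold higher), while Nkx2-2 and Mbp, of myelin (at least 2.04-fold), were lower. Mbp was within 2-fold without background correction. At the 2-fold threshold the lineage therefore had no common direction. Below it, Olig1 (0.36), Olig2 (0.37) and Pdgfra (0.39) were slightly higher with Nurr1. Of all 13 genes, 10 were above 0 and 3 below.

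Pan-neuronal genes were near balance by their median of 0.08. Of 32, 2 were higher (6.25%, against 3.14% of all genes) and 5 lower (15.6%, against 4.41%). Nefm, a neurofilament subunit, had 604 with Nurr1 and 185 with Foxa2 (5.81-fold higher), and the vesicle calcium sensor gene Syt1 909 and 465 (2.42-fold). Lower with Nurr1 were Cplx2, a regulator of vesicle fusion (252 and 1089, 5.40-fold), Rbfox3, the gene of the neuronal nuclear antigen NeuN (2.66-fold), Elavl4 (2.56-fold), Gng3 (at least 2.25-fold) and Nsg2 (2.02-fold). Gng3 and Nsg2 were short of 2-fold without background correction. Neuronal genes thus differed in either direction as single members.

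Cortical glutamatergic genes had 4 of 16 higher with Nurr1, 1 lower and a median of 0.43. Nrn1, which promotes neurite growth, had 719 with Nurr1 and 188 with Foxa2 (6.97-fold higher). Bcl11b, a factor of deep-layer projection neurons, had 3039 with Nurr1, 837 with Foxa2, 984 with both and 1108 on the Control array (4.35-fold). Lmo3 (2.34-fold) and Reln, the secreted guide of cortical layering (4652 and 2465, 2.06-fold), were the others, and Neurog2 was the lower one. Of 9 GABAergic genes, Sp8 (3.80-fold) and Calb2 (2.34-fold), both of interneurons, were higher and Npy was lower (median -0.10). Of the 9, 4 were above 0 and 5 below, with Gad1 (-0.43) and Dlx2 (-0.51) below and short of 2-fold. Among 10 granin and neuropeptide genes, 3 were higher and 1 lower (median 0.17, or 0.48 with no filter). Pdyn, the dynorphin precursor (930.2 with Nurr1, 281 with Foxa2, 4.84-fold), Nptx2, a pentraxin that clusters glutamate receptors (831 and 215, 6.43-fold), and the neuromedin B gene Nmb (4.67-fold) were higher. Npy, neuropeptide Y, had 187 with Nurr1, 785 with Foxa2 and 748 on the Control array (5.999-fold lower with Nurr1 than with Foxa2).

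Of 33 ion channel genes, 6 were higher and 6 lower (median 0.21). The higher ones included Grik1, the potassium channel genes Kcna2 (2.52-fold), Kcnf1 (2.52-fold) and Kcnma1 (at least 2.48-fold) and the sodium channel subunit gene Scn3b (2.25-fold). The lower ones included Kcnk2, a leak potassium channel gene (389 with Nurr1, 1168 with Foxa2, 3.21-fold), Gria1, an AMPA receptor subunit (395 and 1129, 3.04-fold), and the calcium channel genes Cacna1h (3.02-fold) and Cacna2d1 (2.67-fold). Kcnh2 was 2.65-fold lower, and Kcnf1, Kcnma1, Scn3b and Kcnh2 were short of 2-fold without background correction. Of 33 axon guidance genes, 2 were higher and 2 lower (6.06% each, against 3.14% and 4.41% of all genes), with a median of -0.15. Sema5a had 11439.6 with Nurr1, 2733 with Foxa2, 9179.8 with both and 1430.2 on the Control array (4.68-fold higher), and the netrin receptor gene Unc5c was 2.42-fold higher. Nrp1, a co-receptor of semaphorins (384 and 1732, 5.003-fold), and Rgma, a repulsive cue (2.89-fold), were lower.

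Matrix genes lay on both sides. Of 37 extracellular matrix and protease genes, 6 were higher and 5 lower (median -0.09). The basement membrane collagen chains Col4a1 (646 with Nurr1, 266 with Foxa2, 3.50-fold) and Col4a2 (at least 2.38-fold), the proteoglycan gene Bgn (457 and 182, 4.30-fold), the protease gene Adamts5 (2.44-fold) and Spon2 were among those higher. The protease inhibitor genes Timp3 and Timp4 (337 and 1110.2, 3.69-fold), Fbln2 (3.04-fold), the laminin chain Lama1 (2.61-fold) and Mfap4 (at least 2.13-fold) were lower. Adamts5, Col4a2, Lama1 and Mfap4 were short of 2-fold without background correction. Of 7 contractile and mesenchymal genes, Acta2, smooth muscle actin, was lower with Nurr1 (292, against 1465 with Foxa2, 236 with both and 141 on the Control array, 6.07-fold), and the Foxa2 array alone was high. The contractile median was -0.52, and -0.32 without background correction.

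Of 10 measured NR4A and retinoid receptor genes, Nr4a2, carried by the virus, was higher and 2 were lower (median 0.20). The lower ones were Rxrg (at least 2.11-fold), a possible partner of Nurr1, and the retinoic acid receptor gene Rarb (356 with Nurr1, 747 with Foxa2, 2.18-fold), both short of 2-fold without background correction.

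Metabolic housekeeping was near equal. None of 53 respiratory chain genes was 2-fold different, with a median of 0.09, and the farthest were Ndufb2 (0.50) and Atp5g1 (0.45). Of 18 glycolysis genes only Eno3 and the phosphofructokinase gene Pfkp (2.34-fold, short of 2-fold without background correction) were higher, none was lower, and the median was 0.10. Of 22 cholesterol and fatty acid genes, Srebf1, their transcriptional regulator, was 2.17-fold lower (median -0.16), again short of 2-fold without background correction. Of 19 folding and stress genes of the endoplasmic reticulum, Ero1b alone differed (median -0.31). Thus Eno3 and Ero1b were each far from the other members of their lists.

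Lipid handling genes had 3 of 12 higher and 1 lower (median -0.29). With Lpl, the lipoprotein receptor gene Vldlr (3479 with Nurr1, 1409 with Foxa2, 2.80-fold) and Apod (at least 2.51-fold, short of 2-fold without background correction) were higher, and the phospholipid transfer protein gene Pltp (177 and 703, 5.84-fold) was lower. Of 28 metallothionein and antioxidant genes, Gsto1, a glutathione transferase (13001 with Nurr1, 2071 with Foxa2, 7.02-fold), and Sod3, extracellular superoxide dismutase (at least 2.25-fold, short of 2-fold without background correction), were higher and Gstm1 (706 and 2324, 3.31-fold) was lower (median 0.07). Glutathione transferases thus lay on both sides. The higher and lower shares of this list were 7.14% and 3.57%, against 3.14% and 4.41% of all genes. Of 13 interferon and antigen presentation genes, Ifitm3, which blocks virus entry, was 2.98-fold lower with Nurr1 (median -0.15). It had 1145 with Nurr1, 3470.4 with Foxa2, 3735 with both and 348 on the Control array.

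**Figure D4:**
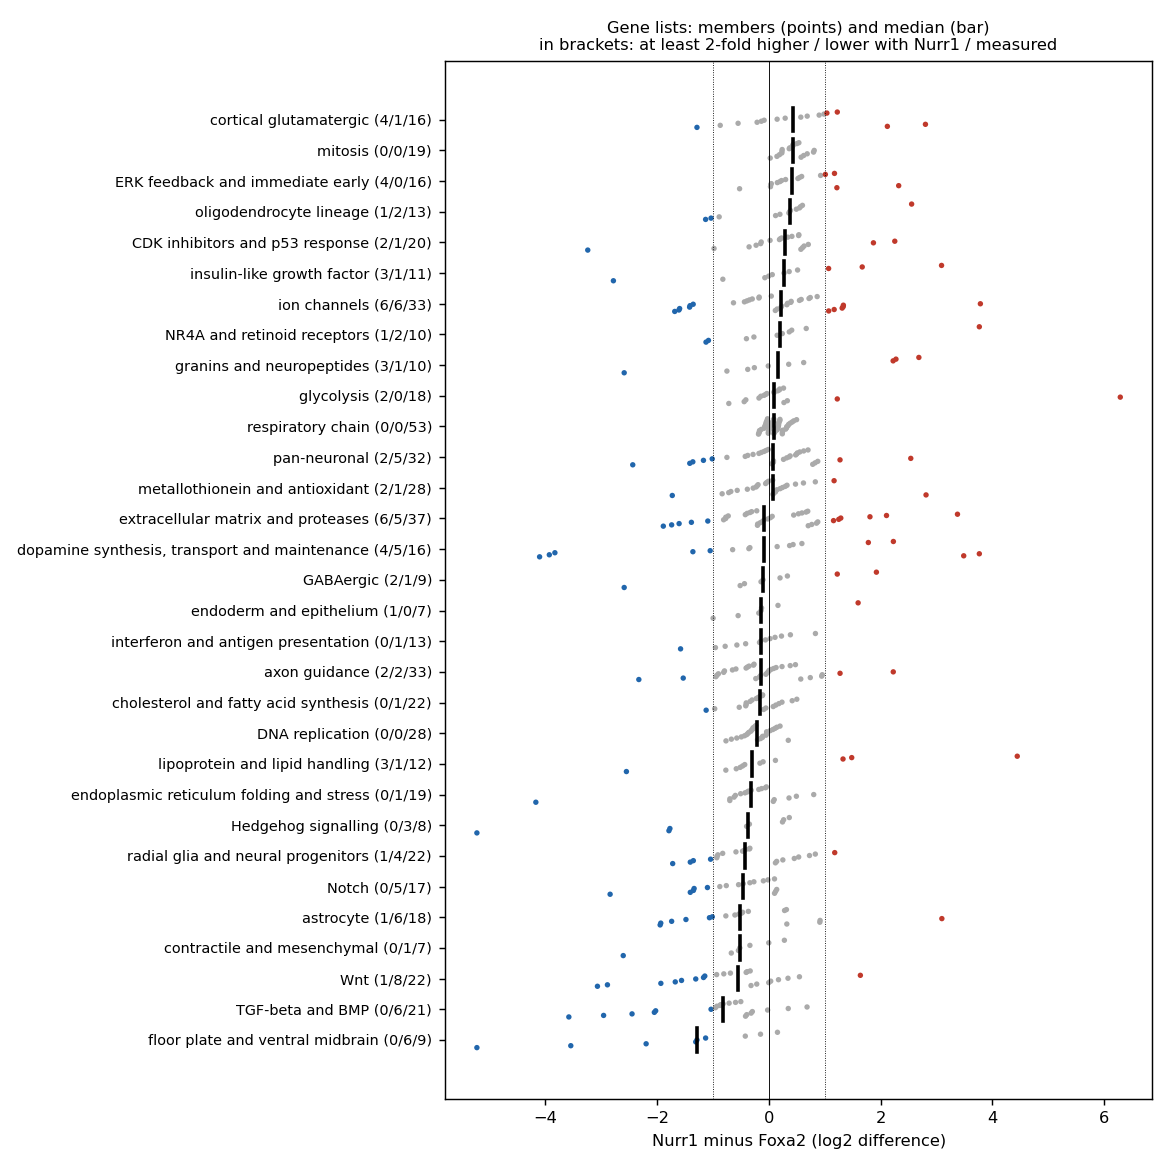
Nurr1 minus Foxa2 difference (log2, horizontal axis) of every measured gene (points) of 31 gene lists, with each list's median (bar) and, in brackets, its counts of genes at least 2-fold higher, lower and measured. The floor plate, TGF-beta and Wnt lists have the lowest medians (-1.28, -0.82 and -0.54), and the mitosis, cortical glutamatergic and ERK lists the highest (0.43, 0.43 and 0.41).

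Markers of other cells were only in part at background, and few of those listed had a named probe. These were 1 of 12 for microglia, 2 of 12 for endothelium and 4 of 12 for meninges and fibroblasts. For neural crest and melanocytes they were 4 of 12, and for red cells 2 of 8. Aif1 of microglia, Kdr of endothelium, Hba-a1 and Hbb-y of red cells, and Col1a1 and Lum of fibroblasts were detected on neither array. Egfl7, also of endothelium, was detected on both (283 with Nurr1, 360.0 with Foxa2). The meningeal markers Dcn (227 with Nurr1, 139.5 with Foxa2) and Foxc1 (234 and 125) were detected with Nurr1 only. The 4 markers summed to 783 with Nurr1 and 467 with Foxa2. The first sum is in part and the second wholly of undetected signals, so they give no marker difference. Beside the 6 higher matrix genes, the part of these markers in the result was not tested. Of 4 neural crest and melanocyte markers, Tyrp1 and Pmel (194 with Nurr1, 165 with Foxa2) were detected with Nurr1 and not with Foxa2. Dct (178 and 207) and Ednrb (28074 and 43215) were detected on both arrays. The sums were 33713 with Nurr1 and 43682 with Foxa2, and most of both was Ednrb. On the Control array Pmel (255) and Dct (336) were brighter than on either single-factor array, while Tyrp1 was at background there (97.8). Beside the large Tyrp1 difference, the defining markers Pmel and Dct were thus close to the detection limit of the Nurr1 array, and their part in the result was not tested.

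Neither the Control nor the Nurr1+Foxa2 array entered the difference by which genes were called, apart from the normalization and the choice of probe. The 252 genes higher with Nurr1 had a median normalized level of 9.40 (log2) with Nurr1, 7.44 with Foxa2, 8.89 with both and 7.53 with the empty virus. The 354 genes lower with Nurr1 had 7.76 with Nurr1, 9.60 with Foxa2, 8.55 with both and 8.52 with the empty virus. All 8030 genes had medians between 9.46 and 9.48 on every array. The first group thus had its Control level near the Foxa2 level, while in the second the Control and Nurr1+Foxa2 levels lay between those of the single factors. The first 2 values in each group were used to choose it and are a description.

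**Figure D5:**
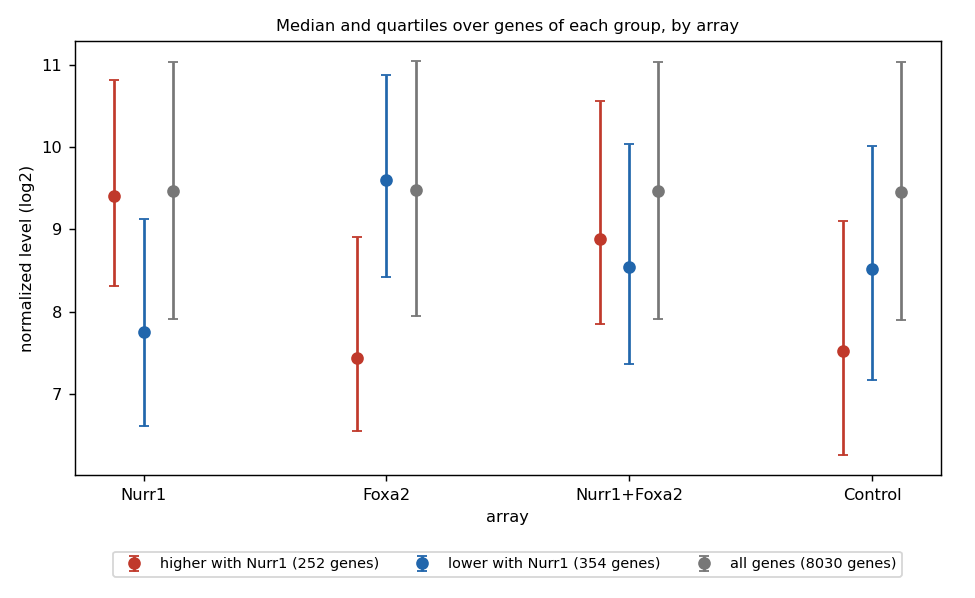
Normalized level (log2, vertical axis) on each of the 4 arrays of the 252 genes higher and the 354 genes lower with Nurr1 than with Foxa2, as medians and quartiles. In the first group the Foxa2 and Control medians (7.44 and 7.53) are low, and in the second the Control and Nurr1+Foxa2 medians (8.52 and 8.55) lie between the single factors.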

How the data were processed

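Expression was measured once per group, on 4 single-colour Illumina bead arrays labelled with biotin, per the labels. The scanner table, as deposited, gives for each probe and array a bead intensity on a linear scale and a detection p-value, per the file headers. No background had been subtracted, as the lowest intensities lay near 60, and the p-value steps correspond to 798 negative-control bead types. A second table deposited by the authors is on a log2 scale, which, like its quantile normalization, was read from the values. It was used as an alternative and for the platform gene symbols, which reach 12484 probes. The scanner software, and how the second table's probes were picked, are not given in the sources used.

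Intensities were corrected with limma 3.58.1 in R 4.3.3 (neqc from detection p-values, offset 16, quantile normalization over 4 arrays, log2). Tables used Python 3.11.15, pandas 2.3.3 and numpy 2.4.6, and figures matplotlib 3.10.9. A probe was detected under a p-value of 0.01. Of several probes of a gene, the one with the highest mean level over the 4 arrays stood for it (2399 genes tested had more than 1 named probe). A value below detection was raised to the lowest detected level of its array where the other array detected the probe. In 36 genes this left no difference, and such genes, as well as list members detected on neither array, have no fold. With 1 array a group no p-value between groups was computed. The steps were tested on simulated data. Signals of different genes depend on their probes and were not set against each other.

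The members, gene lists and named genes were chosen with earlier results of these data known. Text names the 12 largest measured differences and 8 largest bounds each way, all measured dopamine and floor plate genes, and up to 5 genes per list and direction, or the 2 farthest where none reached 2-fold. Marker genes and genes outside this rule are named as such. Sequences came from RefSeq windows of GRCm38.p6, matched by symbol for 6571 genes tested. Alternatives were other backgrounds, normalizations, offsets, filters and probe choices, and the authors' values.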

Additional observations from a re-analysis of the deposited data

Results flagged for a closer look

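Probes without a gene symbol took no part in the comparison and carried differences of their own. Of 836 unnamed probes detected on the Nurr1 or the Foxa2 array, 94 were at least 2-fold different, 41 higher and 53 lower with Nurr1 than with Foxa2, and the Control array did not detect 47 of the 94. The unnamed probe with the largest difference had a signal of 2843 with Nurr1, against 90.9 with Foxa2, 569 with both and 86.2 with the empty virus. It was at least 34.7-fold higher with Nurr1 than with Foxa2. The unnamed probe farthest the other way had 119.6 with Nurr1, 858 with Foxa2, 141 with both and 122 with the empty virus, at least 8.44-fold lower. Their genes are not named here.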

How the results depend on the processing

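No paired analysis was possible because each group has 1 array. Every difference rests on a single culture, transduction and array, and values near the lowest detected signal are little firmer than bounds. The count of genes higher with Nurr1 than with Foxa2 was 162 without background correction and 163 with the authors' deposited values, against 252, and the count of lower genes was 244 under both, against 354. Under the other settings tried, the counts stayed between 204 and 309 higher and between 303 and 422 lower. Over all settings 39.2% to 42.4% of differing genes were higher. Of 330 list medians recomputed, 321 moved little. The contractile median was -0.32 with no background corrected and -0.32 in the authors' values, against -0.52. Detection under 0.05 gave 0.37 for the dopamine list (-0.09 as reported), -0.55 for endoderm (-0.14) and -0.59 for TGF-beta and BMP (-0.82). With no filter these were 0.37, -0.36 and -0.56, and granins had 0.48 (0.17). These settings add dim genes or remove the floor, which changes what enters the medians. Of the named genes, 26 were short of 2-fold without background correction or with the authors' values, 11 with an offset of 50, and none changed direction. Scaling to equal medians of all probes, chosen after seeing the data, left Etv4 and Nsg2 short of 2-fold. Dcn and Foxc1 passed 2-fold with detection under 0.05, and Slc6a3 too with no filter.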

Other observations

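The gene families that follow were picked after their values were seen, so their counts are a description. Over all genes 3.14% were higher and 4.41% lower. Of 5 annexin genes, which encode calcium-dependent membrane-binding proteins, 3 were at least 2-fold lower with Nurr1 than with Foxa2 and all 5 were below 0, with a median of -1.08. Anxa5 had a signal of 626 with Nurr1, 2939 with Foxa2, 1179 with both and 341 on the Control array (4.82-fold lower), and Anxa2 1331, 5059, 2669.9 and 899.5 on the same arrays (3.76-fold lower). Of 49 genes of the cilium and its axoneme, 10 were lower and none higher, with a median of -0.22. Rfx4, a transcription factor gene of ciliated neural progenitors, had 1671 with Nurr1, 5782 with Foxa2 and 2381 on the Control array (3.36-fold lower with Nurr1 than with Foxa2). Rfx2 (843 and 1963, 2.29-fold), Mns1 (269 and 769.5, 3.33-fold) and Efcab1 (at least 5.06-fold) lay the same way.

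Of 6 measured acetylcholine receptor genes, Chrna4 and Chrnb2 of the ion channel list included, 4 were higher and none lower. Chrnb1, a nicotinic subunit, had 845 with Nurr1 and 223 with Foxa2 (6.16-fold), and Chrm3, a muscarinic receptor gene, 559 and 144 (at least 6.04-fold). Of 10 regulators of G-protein signalling, 4 were higher and 1 lower: Rgs9 (1195 with Nurr1, 382 with Foxa2) was 4.16-fold higher and Rgs3 (276 and 994) 4.32-fold lower. Of 15 glycan sulfotransferase genes, 4 were higher and 1 lower, led by Chst8 and Hs6st2, with Chst2 3.05-fold higher and Chst3 2.56-fold lower. Lrrk2, the Parkinson's disease kinase gene, had 377 with Nurr1, 196 with Foxa2 and 143 on the Control array (2.98-fold higher with Nurr1 than with Foxa2), and 2478 on the Nurr1+Foxa2 array.

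Some differing genes were neighbours on the chromosome. Among 3791 pairs of adjacent tested genes, 27 pairs had both members at least 2-fold different, 17 of them in the same direction, and 10.4% of tested neighbours of a differing gene differed themselves, against 7.55% of all genes. Tyrp1 stood beside Lurap1l (5.35-fold higher with Nurr1), Greb1 beside Ntsr2, Grik1 beside Bach1 (2.44-fold higher) and Tgfbr2 beside Rbms3 (5.10-fold lower). Peg3 (2.93-fold higher) and Usp29 (2.32-fold higher) are neighbours in an imprinted region. Col4a1 and Col4a2 share a divergent promoter and were both higher. No test was made of these pairs.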
